A study of Rattus norvegicus with 24 samples.

Results

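Piezo1, Piezo2, Asic1, Asic2 and Asic3 were followed across the neuron types and surgical groups of a rat dorsal root ganglion (DRG) single-neuron RNA-seq series. The 5 genes were taken by name, as the Piezo and acid-sensing ion channel genes of the count tables, out of 32881 genes shared by all files. Values come from 1433 of 1464 sequenced neurons, those with at least 500 detected genes, at least 1000 unique molecular identifiers (UMIs, tags that mark single captured RNA molecules) and less than 5% mitochondrial UMIs.

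The animals were male Sprague-Dawley rats that had undergone sham surgery or spared nerve crush (SNC), in which the tibial and common peroneal branches of the left sciatic nerve were crushed and the sural branch was left whole. In sham surgery the nerve was exposed and not injured. L4-5 DRG neurons, labelled by a dye placed on the nerve branches, were picked by mouth pipette and sequenced at their 3′ ends with a modified Smart-seq2 protocol. The labelled groups were sham (4 samples, 215 neurons), SNC at 1 day (4 samples, 238 neurons), 3 days (3 samples, 237 neurons) and 7 days (5 samples, 240 neurons). A further 7 sham libraries (503 neurons), called added sham here, are labelled as new libraries, at 0, 1, 3 or 7 days after sham surgery. Samples are named by their batch names in the labels (Xin, S and numbers, and S1 to S7 for the added set). Cell names carry no dye colour, so neurons of crushed and spared branches were summed together, and an effect limited to the crushed axons would be diluted. The labels do not say how many rats a sample pools, so p-values measure the spread between samples.

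Piezo proteins are large cation channels that open when the membrane is stretched. Piezo2 is the main channel of touch and body position sense in DRG neurons, whereas Piezo1 is best known from blood vessels and red blood cells. Acid-sensing ion channels (ASICs) are sodium channels of the degenerin and epithelial sodium channel (ENaC) family that open when protons rise outside the cell. Asic3 is known for its part in muscle and inflammatory pain, Asic1 carries most of the acid current of central neurons, and Asic2 joins the other subunits and changes the acidity at which they open.

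Summed UMIs per sample ranged from 4002503 to 28975829 in the labelled set and from 14004136 to 40732975 in the added set, with medians per neuron of 239286 and 340145. No cell column was repeated between libraries. Added libraries S1 and S2 stood apart, with 0 neurofilament-type neurons in either. Summed glial marker RNA (6 genes) ranged from 122 to 1330 CPM (UMIs of a gene scaled to 1000000 UMIs of its sample) over all samples, so glial RNA was present in each. The neuronal gene Nefm averaged 1401 CPM in labelled sham. The injury list (8 genes, led by Gap43, Gal and Atf3) summed to 2780 to 6588 CPM in labelled sham, which overlapped the 2583 to 4484 CPM of the SNC samples, and to 705 to 1141 CPM in added sham.

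The labelled and the added neurons were clustered apart, with the 5 genes kept out of the clustering, and clusters were named from fixed markers. In the labelled set they were peptidergic (PEP1-like, 193 neurons; PEP2-like, 192; PEP3-like, 109), neurofilament-rich (NF-like, a Shox2-led cluster of 91 and a S100a16-led cluster of 86), somatostatin-type itch neurons (SST-like, an Ifitm1-led cluster of 72 and a Sst-led cluster of 57), non-peptidergic (NP-like, 59) and cold-sensing (TRPM8-like, 29), plus 42 unnamed neurons with high glial genes. The name of the S100a16-led cluster rests on 3 of 8 markers (Nefh, Ntrk3 and Ldhb), and it was lost with another clustering setting. The Ifitm1-led cluster was named SST-like by 3 of 5 markers (Nppb, Il31ra and Osmr), and Sst itself did not count as high there. The PEP1, PEP2 and PEP3 lists were drawn largely from the study's markers of labelled neurons, so they were not used to name added clusters. In the added set the NF-like (97), NP-like (76) and SST-like (28) clusters could be named. The other 4 stayed unnamed and are called by their leading genes: Kcng1 (136 neurons, with all 6 glial markers high), Rbp2 (91), AABR07068285.1 (58) and Cd7 (17). In the Kcng1-led cluster 6 of 7 peptidergic markers were high as well. Levels by cluster are a description with no test, since the clusters were made from these cells. Each is the mean ± SD over those samples that held 3 or more of its neurons.

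Piezo2, the touch channel gene, was carried by most types and split the labelled clusters into a high and a low group. In NP-like neurons it averaged 305 ± 75.4 CPM (SD, n = 8 samples), with 223 in the lowest sample, a median of 293 and 401 in the highest. The Shox2-led NF-like cluster followed with 262 ± 58.3 CPM (n = 12), from 135 through a median of 266 to 349. Sst-led SST-like neurons were at 260 ± 67.4 CPM (n = 8), and S100a16-led NF-like neurons at 215 ± 87.2 CPM (n = 15). PEP2-like neurons, at 153 ± 43.6 CPM (n = 16), and Ifitm1-led SST-like neurons, at 149.98 ± 42.6 CPM (n = 12), closed the high group. The PEP3-like (35.5 ± 23.1 CPM, n = 11), PEP1-like (35.03 ± 18.8 CPM, n = 16), glial-high (17.7 ± 12.1 CPM, n = 7) and TRPM8-like (11.9 ± 13.5 CPM, n = 5) clusters formed the low group.

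Neighbours in this order did not differ beyond the spread of their within-sample difference except at the step from Ifitm1-led SST-like to PEP3-like neurons. There the mean difference of log2(CPM + 1) was 2.36 ± 1.22 (SD, n = 10 samples), and it was positive in 10 of 10 samples. Piezo2 thus divided the peptidergic neurons among themselves. PEP1-like minus PEP2-like was -2.42 ± 1.5 on the log2 scale and negative in all 16 samples, and PEP2-like minus PEP3-like was 2.34 ± 1.11 and positive in all 11. The SST-like clusters were also unequal, with the Ifitm1-led cluster lower in 7 of 8 samples (-0.84 ± 0.42). At the level of cells, Piezo2 UMIs were found in 91 of 91 Shox2-led neurons and in 44.8% of TRPM8-like neurons (exact binomial 95% interval 26.4 to 64.3%, counting error only).

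In the added sham libraries every cluster was high in Piezo2. The lowest, the Kcng1-led cluster, averaged 266 ± 68.2 CPM (n = 6), NF-like neurons 336 ± 51.5 (n = 5), AABR07068285.1-led neurons 347 ± 44.7 (n = 7), Rbp2-led neurons 361 ± 59.2 (n = 6), NP-like neurons 402 ± 43.5 (n = 7), SST-like neurons 451 ± 188 (n = 6) and Cd7-led neurons 505 ± 117 (n = 4). No pair of neighbours differed beyond its spread. Differences between clusters made up 15.6% of the variance of log2(CPM + 1) between added neurons and 50.3% between labelled neurons. The PEP1-, PEP2- and PEP3-like names were not open to added clusters. The sets were also clustered apart, so these shares describe different mixtures of cells.

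Asic1, the acid-sensing subunit best known from central neurons, was highest, among the labelled neurons, in clusters where Piezo2 was low. PEP3-like neurons averaged 110.05 ± 47.8 CPM (n = 11), with 35.4 in the lowest sample, a median of 106 and 212 in the highest. TRPM8-like neurons came next at 104 ± 21.9 CPM (n = 5), from 82.1 to 131, and the glial-high cluster at 72.5 ± 52.2 CPM (n = 7). The Shox2-led NF-like (60.8 ± 37.6, n = 12), PEP1-like (45.7 ± 20.8, n = 16) and S100a16-led NF-like (42.6 ± 31.7, n = 15) clusters were in between. NP-like (13.0 ± 11.2, n = 8), Ifitm1-led SST-like (11.2 ± 9.93, n = 12), PEP2-like (7.18 ± 4.10, n = 16) and Sst-led SST-like (6.12 ± 5.64, n = 8) clusters were lowest. Most neighbours overlapped. TRPM8-like was above the glial-high cluster beyond the spread, over only 2 shared samples.

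Among the peptidergic clusters the order of Asic1 was the reverse of that of Piezo2 for PEP2-like neurons, which were low. PEP2-like minus PEP3-like was -3.48 ± 0.68 (log2(CPM + 1), SD) and negative in 11 of 11 samples, and PEP1-like minus PEP2-like was 2.62 ± 1.25 and positive in 16 of 16. Within the Shox2-led cluster Asic1 was uneven. The lower quartile, median and upper quartile over its cells, pooled over samples, were 2.59, 22.5 and 80.6 CPM. Added NF-like neurons, pooled over libraries, had quartiles of 28.2, 189.8 and 339 CPM. Their mean over samples was 125 ± 99.98 CPM (n = 5). Library S4 gave 44 of these 97 neurons and had 293 CPM, against 52.6 to 140 CPM in the other libraries. Pooled quartiles thus mix the spread between neurons with that between samples. In the added set the Kcng1-led (231 ± 105 CPM, n = 6) and Cd7-led (231 ± 73.1 CPM, n = 4) clusters were highest, the latter being also the highest in Piezo2, and the step from Cd7-led to NF-like neurons exceeded the spread over 3 shared libraries (0.95 ± 0.73). The Rbp2-led (73.2 ± 67.8 CPM, n = 6), SST-like (63.0 ± 56.4 CPM, n = 6) and AABR07068285.1-led (38.4 ± 29.4 CPM, n = 7) clusters followed. NP-like neurons (22.1 ± 35.9 CPM, n = 7) were lowest.

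Asic3, the sensory neuron subunit, reached the highest level of the 5 genes in the labelled set, on a UMI scale that does not depend on transcript length. PEP1-like neurons averaged 475 ± 122 CPM (n = 16), with 166 in the lowest sample, a median of 492 and 630 in the highest. S100a16-led NF-like neurons followed at 414 ± 45.6 CPM (n = 15) with a narrow range of 357 to 506, and PEP3-like neurons at 377 ± 64.5 CPM (n = 11). The glial-high (237 ± 128, n = 7), PEP2-like (189.9 ± 110.4, n = 16) and Shox2-led NF-like (172 ± 79.2, n = 12) clusters were intermediate. NP-like (76.4 ± 30.4, n = 8), Ifitm1-led SST-like (65.3 ± 33.6, n = 12), TRPM8-like (54.8 ± 27.2, n = 5) and Sst-led SST-like (21.2 ± 11.8, n = 8) neurons were lowest. Only the last step, from TRPM8-like to Sst-led SST-like neurons, exceeded the spread of neighbours (1.56 ± 1.29, positive in 5 of 5 samples).

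Asic3 separated the NF-like clusters, which had similar Piezo2. Shox2-led minus S100a16-led was -1.42 ± 0.65 (log2(CPM + 1), SD) and negative in 12 of 12 samples. PEP1-like neurons exceeded PEP2-like neurons in 16 of 16 samples, by 1.55 ± 1.09. In the added set the Kcng1-led cluster had 292 ± 82.0 CPM (n = 6), AABR07068285.1-led neurons 157 ± 18.7 (n = 7) and NF-like neurons 121 ± 17.6 (n = 5), and these 3 steps each exceeded the spread, the third being the step down to the Rbp2-led cluster at 28.8 ± 25.7 (n = 6). Cd7-led (19.9 ± 17.1, n = 4), NP-like (15.5 ± 11, n = 7) and SST-like (9.64 ± 8.77, n = 6) neurons were lowest. NP-like exceeded SST-like neurons beyond the spread (0.89 ± 0.87, 6 of 6). The lowest Asic3 was thus in an SST-like cluster in both sets, the Sst-led one among the labelled neurons.

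**Figure D1:**
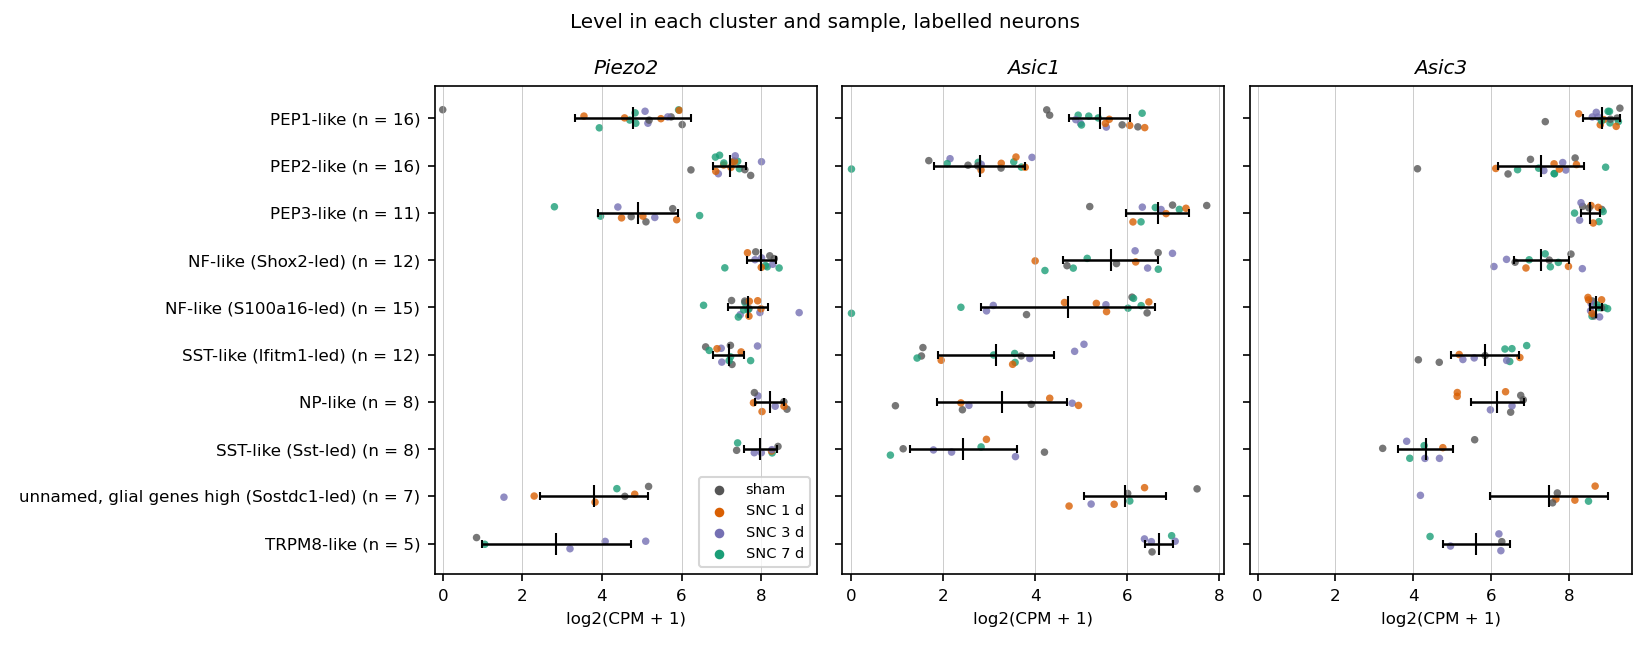
Level of Piezo2, Asic1 and Asic3 in each cluster of the labelled neurons, as log2(CPM + 1) of the summed UMIs of a sample (points, coloured by group), with the mean and SD over samples (bars). Piezo2 drops between Ifitm1-led SST-like (149.98 CPM) and PEP3-like (35.5 CPM) neurons, Asic1 is lowest in PEP2-like and SST-like neurons, and Asic3 is highest in PEP1-like and S100a16-led neurons.

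**Figure D2:**
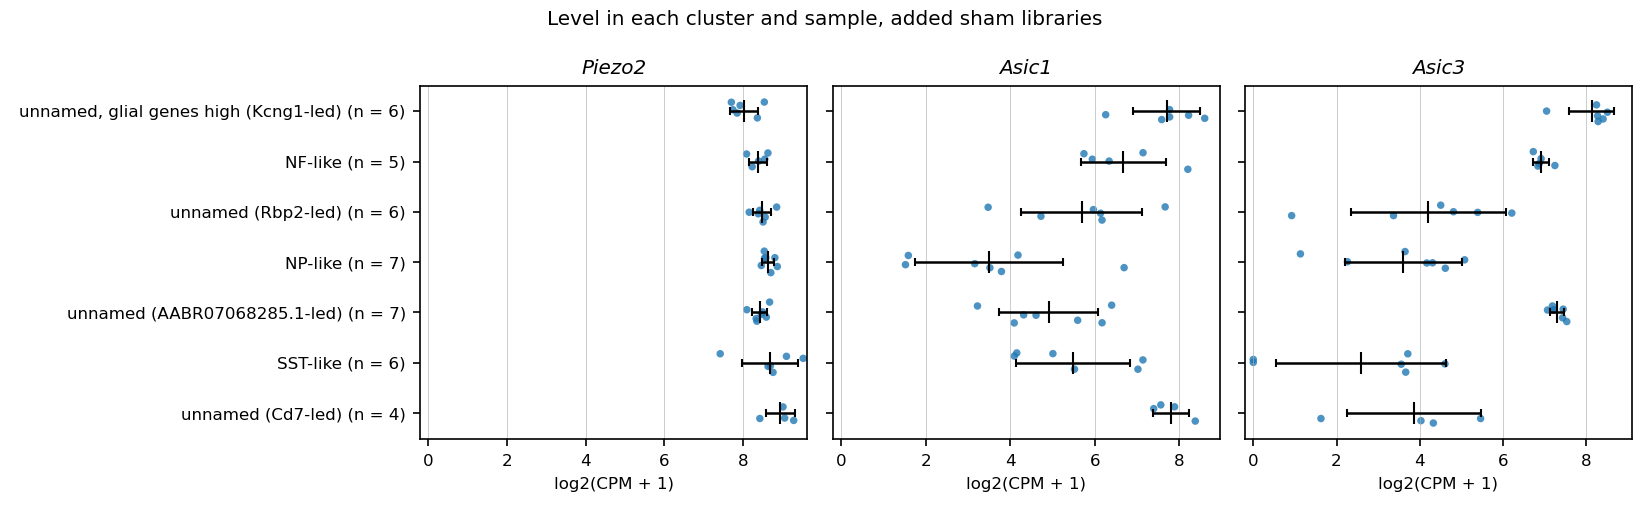
The same plot for the 7 clusters of the added sham libraries (points are libraries, bars the mean and SD). Piezo2 lies in a narrow band in all clusters, from 266 to 505 CPM on average, while Asic1 and Asic3 differ widely between clusters.

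Piezo1 and Asic2 were sparse. Piezo1 gave 124 UMIs in 62 of 930 labelled neurons and 180 UMIs in 58 of 503 added neurons, and Asic2 gave 246 UMIs in 77 and 217 UMIs in 79. Because deeper cells yield a UMI more often, shares of cells were also computed after thinning every cell to 100000 UMIs and leaving out shallower cells.

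Piezo1, the stretch channel of vessels, had its highest level in SST-like neurons in both sets. In the Sst-led cluster it averaged 2.76 ± 1.2 CPM (n = 8 samples), with 0.756 in the lowest sample, a median of 2.86 and 4.54 in the highest, and 36.8% of 57 neurons had a UMI (exact 95% interval 24.4 to 50.7%, 19.2% of 52 after thinning). The Ifitm1-led cluster followed with 1.62 ± 1.76 CPM (n = 12) and 23.6% of 72 neurons (14.4 to 35.1%, 8.62% of 58 after thinning). Sst-led neurons exceeded PEP1-like neurons, at 2.07% of 193 neurons with a UMI, in 8 of 8 samples. No Piezo1 UMI was seen in 29 TRPM8-like neurons, which allows up to 10.3% of neurons with a UMI and sets no limit on expression in these shallow cells. Added SST-like neurons were again the highest, at 6.49 ± 2.34 CPM (n = 6) and 57.1% of 28 neurons (37.2 to 75.5%, 36.0% of 25 after thinning). They exceeded the Kcng1-led cluster, at 0.973 ± 1.04 CPM (n = 6), in 5 of 5 shared libraries by 1.97 ± 0.77 on the log2(CPM + 1) scale. The Kcng1-led cluster had a UMI in 18.4% of 136 neurons, and with 25 of the 58 added neurons with a Piezo1 UMI it held more of them than the smaller SST-like cluster (16).

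Asic2, the modulatory subunit, was concentrated in the Shox2-led NF-like cluster, which held 161 of the 246 labelled UMIs. Its level there was 2.86 ± 1.82 CPM (n = 12), from 0.456 through a median of 2.36 to 6.40. A UMI was present in 48.4% of 91 neurons (exact 95% interval 37.7 to 59.1%, 25.0% of 88 after thinning). NP-like (1.18 ± 1.67 CPM, n = 8) and S100a16-led NF-like (0.738 ± 1.19 CPM, n = 15) neurons came next, and the Shox2-led cluster exceeded NP-like neurons beyond the spread (0.91 ± 0.80, 6 of 7 samples). S100a16-led neurons, of similar depth, had a UMI in 10.5% of 86 cells (2.63% of 76 after thinning). No Asic2 UMI was seen in 109 PEP3-like neurons, which allows up to 2.75% of neurons with a UMI, or in 42 glial-high neurons, which allows up to 7.14%. Both clusters were shallower than the Shox2-led one (medians of 178584, 216518 and 526885 UMIs), so this does not limit the share that express the gene. In the added set the NF-like cluster was highest again (2.12 ± 1.53 CPM, n = 5, and 37.1% of 97 neurons, 14.6% of 89 after thinning). AABR07068285.1-led neurons followed (1.82 ± 2.43 CPM, n = 7, and 25.9% of 58 neurons, 17.6% of 51 after thinning), so the order of these clusters turned with thinning.

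**Figure D3:**
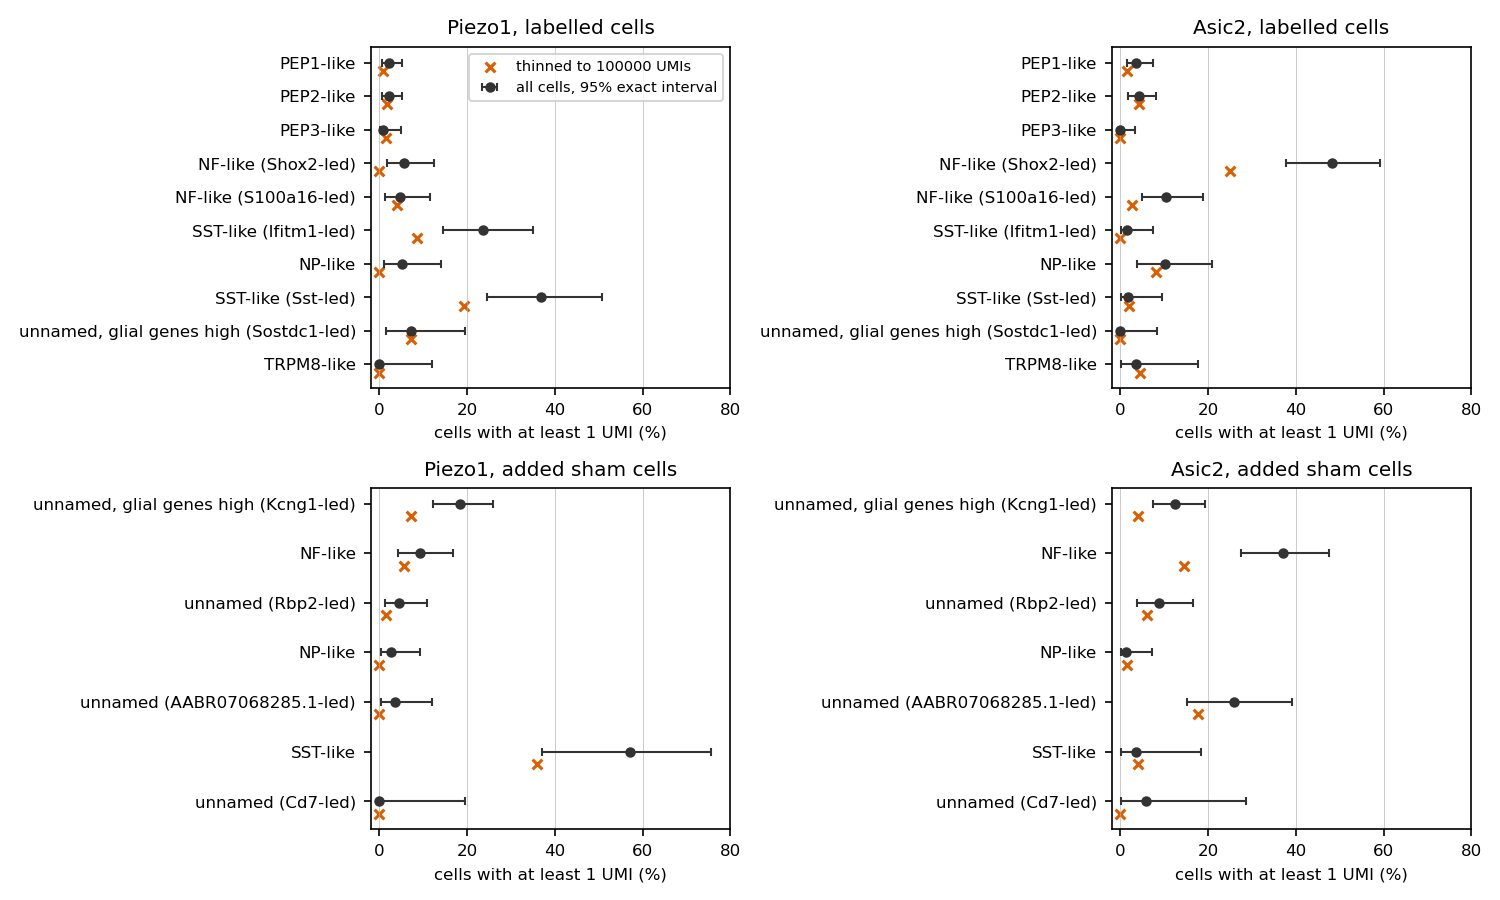
Share of neurons with at least 1 UMI of Piezo1 (left) or Asic2 (right) in each cluster of the labelled (top) and added (bottom) sets, in percent, with exact 95% intervals (black), and after thinning to 100000 UMIs (orange crosses). Piezo1 peaks in SST-like neurons of both sets (36.8% Sst-led, 57.1% added) and Asic2 in NF-like neurons (48.4% and 37.1%). After thinning these remain the highest except for Asic2 in the added set, where NF-like neurons (14.6%) fall below AABR07068285.1-led neurons (17.6%).

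Over the NF-like and the PEP-like classes as wholes, in the 15 labelled samples with both, Piezo2 was higher in NF-like neurons by 1.69 ± 0.46 (log2(CPM + 1), SD) and in 15 of 15 samples. Asic2 was higher by 0.94 ± 0.75 and in 12 of 15. For Asic3 the difference was -0.40 ± 0.61 with 12 of 15 samples negative, for Asic1 -0.10 ± 1.93 with 7 of 15 negative, and for Piezo1 -0.07 ± 0.42 with 5 of 15 negative, each within its own spread. The Asic3 difference depended on the clustering, at -0.72 ± 0.58 (14 of 15 negative) at a resolution of 0.3 and -1.25 ± 0.67 (12 of 12 negative) with 20 principal components, where the S100a16-led cluster had no name, and both exceed their spread. In the added set a PEP-like cluster (106 neurons) appeared at a higher clustering resolution, and another with fewer principal components, but not in the clusters used above. The cluster of 106 was led by Kcng1, like the Kcng1-led cluster above, with 6 of 7 peptidergic and 0 of 6 glial markers high. At the higher resolution NF-like minus PEP-like was 0.42 ± 0.49 for Piezo2 (4 of 5 libraries positive), -1.44 ± 0.64 for Asic1 and -1.40 ± 0.31 for Asic3 (both negative in 5 of 5). The sign for Piezo2 was positive in both sets, with a smaller difference in the added set.

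Several other genes followed each member across clusters. Over 9126 genes, likeness was the lower of the Pearson r of log2(mean CPM + 1) over the 10 labelled and over the 7 added clusters. Such r values rest on few points that share libraries and are a description. Piezo1 was closest to Il31ra, the itch cytokine receptor that is itself an SST marker (r = 0.91 and 0.92), then to Ly86 and Cyba. Piezo2 was closest to Cyp4f39 (0.90 and 0.89), then to Plekha5 and Ppp1r21. Asic1 was closest to Enc1 (0.92 and 0.92), then to Pnrc1 and Sulf2. Asic2 was closest to Hoxc8, a homeobox gene (0.82 and 0.81), then to Usp45 and AABR07049060.1. Asic3 was closest to LOC688459 (0.89 and 0.90), then to Txnrd1, a PEP1 marker (0.93 and 0.88), and Ephb6. Among the members, Piezo2 ran opposite to Asic1 (r = -0.66 labelled, -0.51 added), and Asic1 ran with Asic3 (0.56 and 0.57). Other pairs differed more between the sets, such as Piezo2 with Asic3 (-0.33 labelled, -0.88 added) and Piezo1 with Asic3 (-0.69 and -0.16).

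The comparison of SNC with sham asked whether the level of the channels changed after the crush. Counts were summed over all neurons of a sample and tested with edgeR's quasi-likelihood test, with p-values adjusted over all genes tested by the Benjamini-Hochberg method and called at 0.05. Levels below are CPM after TMM scaling, which corrects for differences in RNA composition. In a sum over all neurons alone, fewer cells of a type and less RNA per cell cannot be told apart. NF-like and PEP-like neurons were therefore also summed on their own, as given below.

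None of the 5 genes was called at 1, 3 or 7 days, where 0 of 14239 genes tested (0%) were called at each time and 1243, 594 and 476 genes had an unadjusted p under 0.05. Piezo2 was at 122, 233, 164 and 143 CPM in the sham samples Xin, 4, 10 and 18. At 1 day samples 13, 16, 17-1 and 17-2 had 152, 159.8, 118 and 139 CPM. At 3 days samples 14, 15 and 17-3 had 165, 159 and 196 CPM, and at 7 days samples S, 8, 9, 19-1 and 19-2 had 161, 203, 151, 120.4 and 120.3 CPM. The groups overlapped throughout, with sham sample 4 the highest of all. The log2 fold changes of Piezo2 against sham were -0.22 (95% interval -0.62 to 0.18), 0.07 (-0.37 to 0.50) and -0.13 (-0.51 to 0.25) at 1, 3 and 7 days.

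Asic3 had 189, 231, 242 and 266 CPM in the 4 sham samples in the same order. At 1 day it had 253, 369, 230.0 and 304 CPM, at 3 days 196, 201 and 268, and at 7 days 236, 235, 294, 279 and 183. Samples 16 and 17-2 at 1 day, 17-3 at 3 days and 9 and 19-1 at 7 days lay above every sham sample, sample 19-2 lay below all of them, and the rest were within the sham range. The log2 fold change at 1 day was 0.31 (-0.04 to 0.67, edgeR adjusted p = 0.609). By the labels, 7 day sample 19-1 held mostly directly and 19-2 mostly indirectly injured neurons, and this single pair allows no test. Asic1 had 36.9, 33.3, 58.9 and 60.4 CPM in sham, and at 7 days 34.5, 28.2, 40.8, 48.8 and 26.0. Its fold change at 7 days was -0.42 (-0.89 to 0.05, unadjusted p of 0.0788 from the same model, adjusted p = 1). At 1 and 3 days Asic1 averaged 47.5 ± 5.98 and 46.7 ± 11.6 CPM (SD, n = 4 and 3), beside 47.4 ± 14.3 in sham.

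For Piezo1 and Asic2 the counts were few and the intervals wide. Piezo1 gave 1 to 20 UMIs per sample, with group means of 0.655 ± 0.690 CPM in sham and 0.346 ± 0.106, 0.558 ± 0.344 and 0.623 ± 0.615 at 1, 3 and 7 days. Its intervals ran from -2.66 to 0.89 at 1 day and from -1.75 to 1.55 at 7 days (log2). Asic2 gave 0 to 54 UMIs per sample, with 0.777 ± 0.562 CPM in sham and 0.423 ± 0.317, 1.13 ± 0.853 and 0.843 ± 0.656 after SNC, and its intervals ran from -2.69 to 0.89 at 1 day and from -1.64 to 1.71 at 7 days. Summed glial marker RNA was 181 to 1330 CPM in sham, 255 to 1063 at 1 day, 122 to 244 at 3 days and 145 to 253 at 7 days. In a fit that left out the neurons of the glial-high cluster no member was called. The part of glial RNA in the other neurons was not tested.

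**Figure D4:**
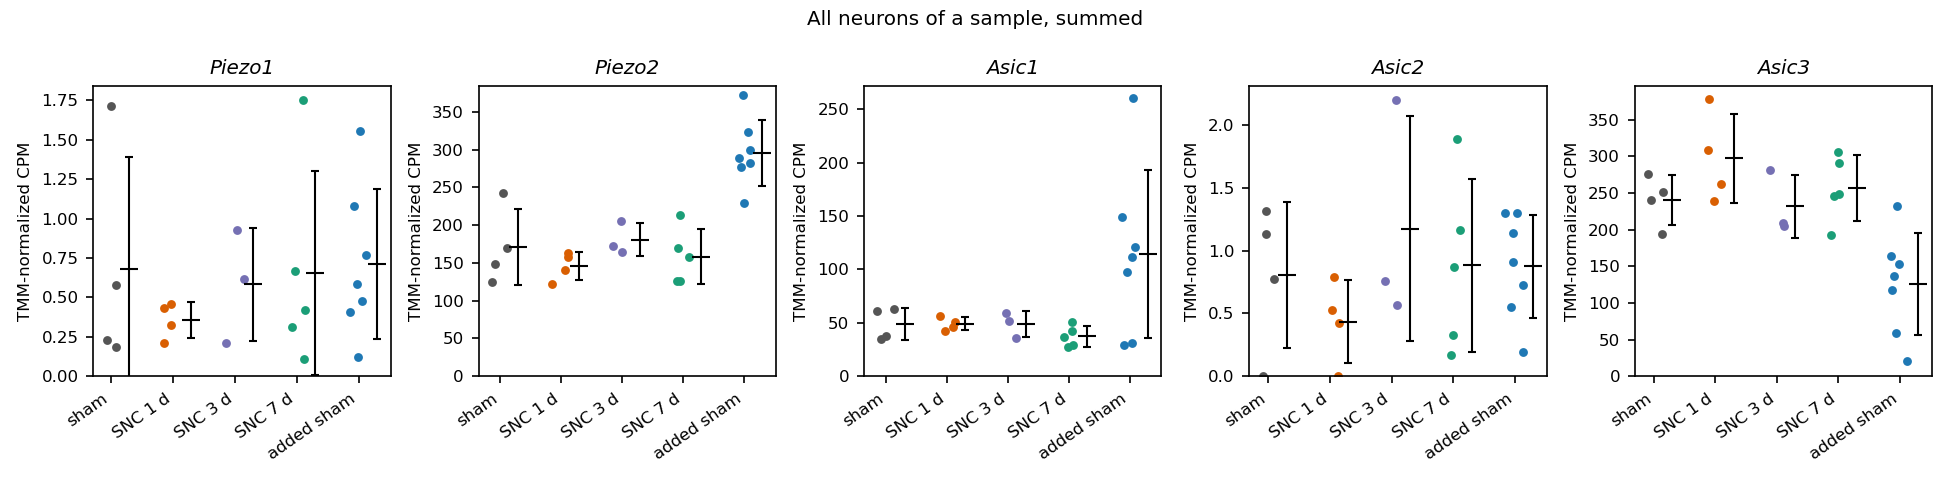
TMM-scaled CPM of the 5 genes in the summed neurons of each sample (points) by group, with the mean and SD (bars), scaled over the labelled and added sets together. The sham and SNC groups overlap for all 5 genes, and the added sham libraries lie higher for Piezo2 (277 to 372 CPM in 6 of 7 libraries) and lower on average for Asic3.

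Within NF-like neurons (15 samples, 3 of them sham, since Xin had too few), 4 of the 5 genes passed the filter on low counts and none was called, where 0 of 13010 genes (0%) were called at each time. The groups overlapped for Piezo2, at 233 ± 28.6 CPM in sham (SD, n = 3), 229 ± 21.8 at 1 day (n = 4), 268 ± 23.9 at 3 days (n = 3) and 223 ± 49.6 at 7 days (n = 5). Its log2 fold change at 3 days was 0.20 (95% interval -0.19 to 0.60). It was 0.45 with the year of reverse transcription in the model (edgeR adjusted p = 0.474), and -0.15 in the Shox2-led and 0.86 in the S100a16-led cluster alone (adjusted p = 1 and 0.523). Asic1 was at 58.1, 50.0 and 60.2 CPM in sham and 71.3, 57.0 and 92.9 at 3 days, a log2 fold change of 0.39 (-0.92 to 1.70) whose direction differed between the Shox2-led (0.63) and the S100a16-led cluster (-1.29) fitted alone. Sample 19-2 at 7 days had 0 Asic1 UMIs, over only 3 NF-like neurons. Asic3 at 3 days was 125, 140.5 and 397 CPM against 214, 345 and 341 in sham, so a single sample, 17-3, was high. Without it the log2 fold change went from -0.45 to -1.19 (edgeR adjusted p = 0.766). The Shox2-led share of NF-like UMIs, the cluster low in Asic3, was 84.1, 76.7 and 53.2% in those 3 samples and 41.6 to 57.4% in sham. Its part in the difference was not tested. Piezo1, which did not pass the filter, gave 0 to 4 UMIs per sample.

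Within PEP-like neurons (16 samples) 3 of the 5 genes passed the filter and none was called, where 0 (0%), 1 (0.00857%) and 0 (0%) of 11672 genes were called at 1, 3 and 7 days. Piezo2 had 139, 142, 105 and 34.8 CPM in sham samples Xin, 4, 10 and 18, and 47.7, 85.1, 61.7 and 51.6 CPM at 1 day. Sham sample 18 was the lowest of all 16, while the other 3 sham samples lay above every SNC sample. For sham sample 10, at 105 CPM, the margin was narrow, with 104 CPM in the highest SNC sample, at 7 days. The log2 fold change at 1 day was -0.75 ± 0.33 (SE, unadjusted p of 0.0348, edgeR adjusted p = 0.613). It was -0.46 at 3 days and -0.45 at 7 days. Without sham sample 18 it was -1.06 at 1 day, and the adjusted p of 0.104 from edgeR was the lowest of any member in any of the fits of SNC against sham.

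Other measures also differed between these samples. PEP2-like neurons, the Piezo2-rich peptidergic cluster, made up 83.2, 57.2, 33.8 and 12.8% of the PEP-like UMIs of those 4 sham samples. In 1 day samples 13, 16, 17-1 and 17-2 they made up 19.4, 26.8, 44.7 and 20.5%. Within each cluster alone the 1 day fold changes were smaller, at -0.31 for PEP1-like, -0.23 for PEP2-like and -0.09 for PEP3-like neurons (edgeR adjusted p = 0.874, 0.893 and 1). The part of the PEP2-like share in the Piezo2 difference was not tested. Sample 18 was also the only sham sample whose reverse transcription fell in the later year, as it did for all 1 and 3 day samples, and with the year as a term in the model the fold changes were 0.28 at 1 day and 0.58 at 3 days. The direction of the Piezo2 difference thus turned with this term. The values with this term lean on sample 18, the lowest in Piezo2. No 1 or 3 day sample fell in the earlier year, so year and time after the crush cannot be fully told apart.

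Asic1 in PEP-like neurons divided the sham samples, with 17.4 and 12.9 CPM in Xin and 4 and 86.7 and 87.9 in 10 and 18. The 1 day samples, at 76.3, 51.1, 45.8 and 53.8 CPM, fell between these. PEP2-like neurons, the peptidergic cluster lowest in Asic1, gave 83.2 and 57.2% of PEP-like UMIs in Xin and 4. They gave 33.8 and 12.8% in 10 and 18. The part of this share in the Asic1 values was not tested. Asic3 had 105, 426, 336 and 371 CPM in sham and 299 to 499 CPM at 7 days, a log2 fold change of 0.33 (95% interval -0.29 to 0.94). Piezo1 and Asic2 gave 0 to 6 UMIs per sample.

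**Figure D5:**
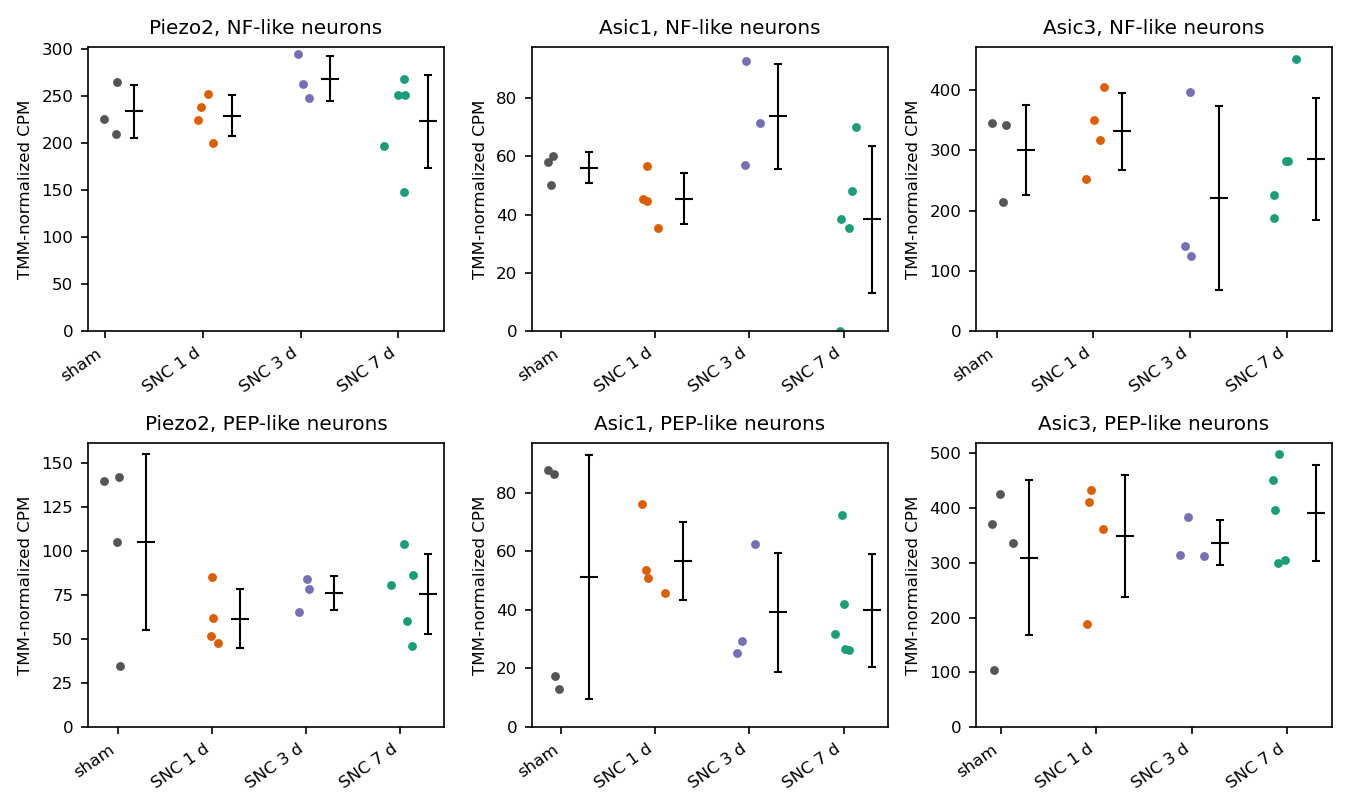
TMM-scaled CPM of Piezo2, Asic1 and Asic3 in the summed NF-like (top) and PEP-like (bottom) neurons of each sample (points) by group, with the mean and SD (bars). In PEP-like neurons 3 of 4 sham samples are above all SNC samples for Piezo2, and sample 18, at 34.8 CPM, is below all of them. The lowest of those 3 is only just above the highest SNC sample (104 CPM, at 7 days).

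The added sham libraries were compared with labelled sham as a difference between sets, since set, labelling and date cannot be told apart. For this fit CPM was scaled over both sets. Here 3 of the 5 genes were called, where 47.6% of 15954 genes tested were called (7589), so the count is not particular to the members. Piezo2 was higher in added sham, at 323, 372, 300.1, 289, 277, 283 and 229.6 CPM in S1 to S7 against 125, 242, 170 and 148 CPM in the labelled sham samples. Only S7 fell below the highest labelled sample. The log2 fold change was 0.79 ± 0.17 (SE, edgeR adjusted p = 0.000573).

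Asic1 was higher and Asic3 lower in the added set. Asic1 had 29.3 and 30.9 CPM in S1 and S2 and 149, 260.0, 111, 97.7 and 121 CPM in S3 to S7, against 34.7 to 62.6 CPM in labelled sham (1.21 ± 0.41, edgeR adjusted p = 0.0192). Asic3 had 21.1, 59.5, 153, 117, 165, 137 and 232 CPM in S1 to S7, against 194 to 276 CPM (-0.93 ± 0.34, edgeR adjusted p = 0.0288). S1 and S2 were thus the lowest for both ASIC genes. By the labels they were taken at 0 days, as was S7, with 121 CPM of Asic1 and 232 CPM of Asic3. S1 and S2 held 0 NF-like neurons, and 0 and 3 neurons of the Kcng1-led cluster, the cluster richest in both genes. The part of day and of cluster make-up was not tested. Without S1 and S2 the fold changes were 1.62 for Asic1, -0.55 for Asic3 and 0.72 for Piezo2, and all 3 stayed called. Leaving out single samples took the call from Asic1 without Xin or 4 (adjusted p = 0.0574 and 0.0628) and from Asic3 without sham samples 4, 10 or 18 or libraries S2 or S4 (0.052 to 0.0703). Piezo1 (0.10, 95% interval -1.38 to 1.57) and Asic2 (0.01, -1.48 to 1.51) were not called.

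Restricted to Shox2-led NF-like neurons, a cluster with the same leading gene in both sets, none of 4 members tested was called, where 23.6% of 13623 genes were. Piezo2 had 321, 232 and 297 CPM in sham samples 4, 10 and 18 and 272 to 397 CPM in 5 added libraries. The fold changes were 0.11 for Piezo2, 1.00 for Asic1 and -0.71 for Asic3 (edgeR adjusted p = 0.728, 0.28 and 0.222). The labelled and added sets also differ in which clusters they hold, as described above.

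Injury genes moved with the same contrast. All 7 tested genes of the injury list were lower in added sham, with a median log2 fold change of -2.17 beside 0.03 over all genes. Atf3, a stress-induced transcription factor, averaged 629 CPM in labelled and 140 CPM in added sham, and the neuropeptide gene Gal 1311 and 6.77 CPM. None of the injury genes was called between SNC and labelled sham at any time. Of the markers of other cells, 0 of 6 glial, 1 of 5 macrophage (Ptprc, higher), 1 of 3 tested endothelial (Flt1, higher) and 3 of 4 tested fibroblast genes (Col1a1 and Pdgfra higher, Dcn lower) were called, and Cldn5 was at 0 in both sets. Their sums in labelled and added sham were 181 to 1330 and 122 to 823 CPM for glia, 7.99 to 18.0 and 6.87 to 17.4 for macrophages, 5.02 to 7.99 and 5.21 to 22.9 for endothelium, and 2.99 to 14.7 and 6.93 to 46.2 for fibroblasts. Of the neuron type lists, 13 of 15 PEP2 and 13 of 16 PEP1 markers were lower (1 PEP1 marker was higher), 3 of 5 SST markers were lower, 2 of 5 tested NP markers were higher, 5 of 28 PEP3 markers were higher and 6 lower, 1 of 4 tested cLTMR markers was higher, and 0 of 8 NF and 0 of 4 TRPM8 markers were called. The PEP1, PEP2 and PEP3 lists were drawn largely from the study's markers of labelled neurons, so their counts are not independent of the sets compared. The part of injury genes, other cells and type make-up in the Piezo and ASIC differences was not tested.

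Genes related in function were read beside the members, from fixed lists. After SNC none was called in all neurons, NF-like neurons or PEP-like neurons. Medians of the log2 fold change in all neurons at 1, 3 and 7 days were 0.11, -0.01 and -0.06 for 11 tested mechanosensitive channels, -0.06, 0.03 and 0.06 for 8 tested Piezo and ASIC partners and 0.27, 0.27 and -0.03 for 6 tested proton sensors, beside medians of -0.01, 0.00 and -0.01 over all genes.

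Between added and labelled sham, 3 of 13 tested mechanosensitive channel genes were called. Tmem150c, which codes for tentonin 3, rose from 54.4 to 157 CPM (1.52 ± 0.20), Tmem63c from 107 to 182 CPM (0.77 ± 0.16), and Tmem120a was lower (124 and 81.0 CPM, -0.61 ± 0.14). Of 9 tested partners 5 were called. Atp2a2, the calcium pump SERCA2, was higher (128 and 311 CPM, 1.28 ± 0.17), and the stomatin family gene Stoml1 (-0.60), the phosphatase gene Mtmr2 (-1.08), Pacsin3 (-1.23) and the annexin gene Anxa6 (-0.23) were lower. Of 6 proton sensors 3 were called, with the capsaicin and acid receptor gene Trpv1 (1.56) and Gpr132 (1.42) higher and the proton-activated chloride channel gene Pacc1 (-0.95) lower. For the ENaC subunits, relatives of the ASICs, Scnn1a (-1.63) and Scnn1b (2.61, at 0.0854 and 0.616 CPM) were called. These shares stand beside the 47.6% of all genes.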

How the data were processed

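The authors deposited UMI counts per gene and cell, made per the labels with STAR, featureCounts, SAMtools and UMI-tools on the rat genome Rnor_6.0 (versions are not given in the sources used here). The 24 deposited count files were used without change. UMI counts tag 3′ ends, so levels do not scale with transcript length. PCR duplicates are removed by UMIs, and intervals and zero limits cover counting error only, a limit being 3 counts over the number of cells. Libraries S-2 and S-3 form 1 sample. Cells were filtered as stated (500 genes, 1000 UMIs, 5% mitochondrial) and clustered per set in Seurat 5.3.0 (2000 variable genes without the members, 40 components, resolution 0.5). No doublet caller was run, since cells were picked by hand.

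A marker counted as high in a cluster at 1.5 times its level in the other cells and in 25% of the cells, and a name needed 3. Sums per sample (at least 3 cells) were tested in edgeR 4.0.16 (filterByExpr, TMM, glmQLFTest, Benjamini-Hochberg over all genes), and code was tested on simulated data. DESeq2 1.42.0, other filters, clusterings, thinning, batch terms and leaving out samples were alternatives. Levels by type used a pseudocount of 1. The named genes were the 5 members, the 3 most alike genes of each (among genes with a mean of at least 10 CPM over the clusters of either set), and genes of fixed lists that were called. The members and lists were chosen with earlier results of these data known. Year of reverse transcription came from the study's sample table.

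Whether counting used strand is not given in the sources used here. In a newer rat annotation, Piezo1 lies beside Ctu2, Asic1 beside Smarcd1 and Asic3 beside Cdk5, and other genes lie within Asic2, so their reads are uncertain where such genes overlap.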

Additional observations from a re-analysis of the deposited data

Results flagged for a closer look

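Sample values of each member were screened for a sample far from the others of its group, in 45 groups of 4 to 7 samples, and 2 were found. For normally distributed values chance alone gives about 1 in 20 groups. That rate need not hold for groups with counts of 0 and 1, and some groups share samples. Piezo1 in NF-like neurons at 7 days after SNC was at 0.137 CPM in sample 8, from 1 UMI, while the other 4 samples had 0. Asic2 in PEP-like neurons at 7 days after SNC was at 0.0739 CPM in sample S, from 1 UMI, with the other 4 samples at 0.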

How the results depend on the processing

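No member was called between SNC and sham under any of the alternatives, and the lowest adjusted p (edgeR or DESeq2) was 0.365 in all neurons, 0.474 in NF-like and 0.104 in PEP-like neurons. Of 848 uncalled fold changes, 87 changed sign, among 32 of 38 results. In added against labelled sham, 3 members were called with DESeq2, with no filter, with thinned cells and without libraries S1 and S2, 1 to 3 with single samples left out, and 0 in Shox2-led NF-like neurons alone, with fewer samples and cells. NF-like minus PEP-like moved to 2.80 for Piezo2 at resolution 0.3, where PEP2-like neurons joined NP-like ones, to -1.25 for Asic3 with 20 components, where the S100a16-led cluster lost its name, and to 0.96 for Piezo2 in the added set with 20 components (the cause was not tested).

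Counts over all genes changed with the tool at 1, 3 and 7 days. DESeq2 called 9, 1 and 0 genes in all neurons, 1, 1 and 4 in NF-like and 18, 5 and 0 in PEP-like neurons, and edgeR with no filter called 0, 1 and 0, then 1, 1 and 0, then 18, 2 and 0. Adding the reverse transcription year to the edgeR model gave 1, 1 and 0, then 1, 2 and 0, then 1, 3 and 0. With the date as a block, edgeR called 1, 3 and 0 in all neurons, and with thinned cells 0, 1 and 0. In added against labelled sham 7589 genes were called, 5046 with thinned cells and 3210 in Shox2-led neurons. Thinning and the Shox2-led fit (chosen after seeing the data, like the fits of single clusters and without S1 and S2) test fewer genes. Depth limits Piezo1 and Asic2, at most 20 and 54 UMIs in a labelled sample.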
